A study of Mus musculus with 4 samples.

Results

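The anterior HoxA genes are Hoxa2, Hoxa3, Hoxa4, Hoxa5, Hoxa6 and Hoxa7, 6 of 22380 protein-coding genes. Regions of open chromatin were assigned to them when the nearest protein-coding transcription start, measured from the centre of the region, belonged to one of these genes, or when the region lay within 2.5 kb of one of their starts. This gave 15 of 42613 regions at E9.5 and 13 of 46765 regions at E10.5. All lie on mouse chromosome 6 (mm9), where the genes span 52112350 to 52171853 and are transcribed from the minus strand, so that Hoxa2 has the lowest and Hoxa7 the highest coordinates.

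Open chromatin was profiled by ATAC-seq, in which a transposase inserts sequencing adapters into accessible DNA, from wild-type embryos of the NMRI strain, at 2 stages and with 2 replicates each. An E9.5 replicate was the forelimb pair of 1 embryo together with the trunk tissue it was attached to (the protocol gives the stage as E9.75), and an E10.5 replicate was a forelimb pair for which no trunk is mentioned. Hindlimb buds are added in the tissue label, but the source label gives forelimb buds. Stage and trunk tissue cannot be told apart in any comparison below, and in bulk tissue fewer cells of a type cannot be told apart from less open chromatin per cell.

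Hox genes encode homeodomain transcription factors that specify position along the body axis. Their order in a cluster mirrors the order of their expression domains, with genes at the 3′ end active earlier and further toward the head than genes at the 5′ end. The anterior HoxA genes act mainly in the hindbrain, pharyngeal arches, neck and thorax, whereas Hoxa9, Hoxa10, Hoxa11 and Hoxa13 at the 5′ end pattern the outgrowing limb. HOX proteins bind DNA together with the PBX and MEIS/PKNOX cofactors, and retinoic acid is a known activator of the 3′ genes.

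The files held 1 list of regions per stage, combined from both replicates. The score of a region is 10 times the negative log10 of its best p-value in peak calling. It grows with sequencing depth, which is unknown here, and is not a level of accessibility. Scores are therefore given as deposited and set between stages only as percentiles, the rank of a region within the list of its stage, on which 50 is the middle of the list. A region that overlapped the other list by 1 bp or more was called shared, and any other region stage-specific. Without values per replicate, no difference between stages has a replicate error and none was tested. Intervals of shares are 95% Wilson intervals, and a range in brackets after a median runs from the lowest to the highest value. The Wilson intervals and the upper limit given for a count of 0 cover counting error only.

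At E9.5 the anterior HoxA genes lay in a densely covered stretch of open chromatin, and at E10.5 the regions were shorter and further apart, except around Hoxa7. From the 3′ end of Hoxa2 to the most upstream Hoxa7 start (59504 bp), regions covered 69.8% of the bases at E9.5 but 29.9% at E10.5, a ratio of 2.34. Over the whole lists the ratio of covered bases was 1.02, and on chromosome 6 it was 0.919. Of the bases covered at E10.5 in the anterior stretch, 96.9% were also covered at E9.5, against 67.9% over the whole lists. Few bases of the stretch were covered at E10.5 alone.

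**Figure D1:**
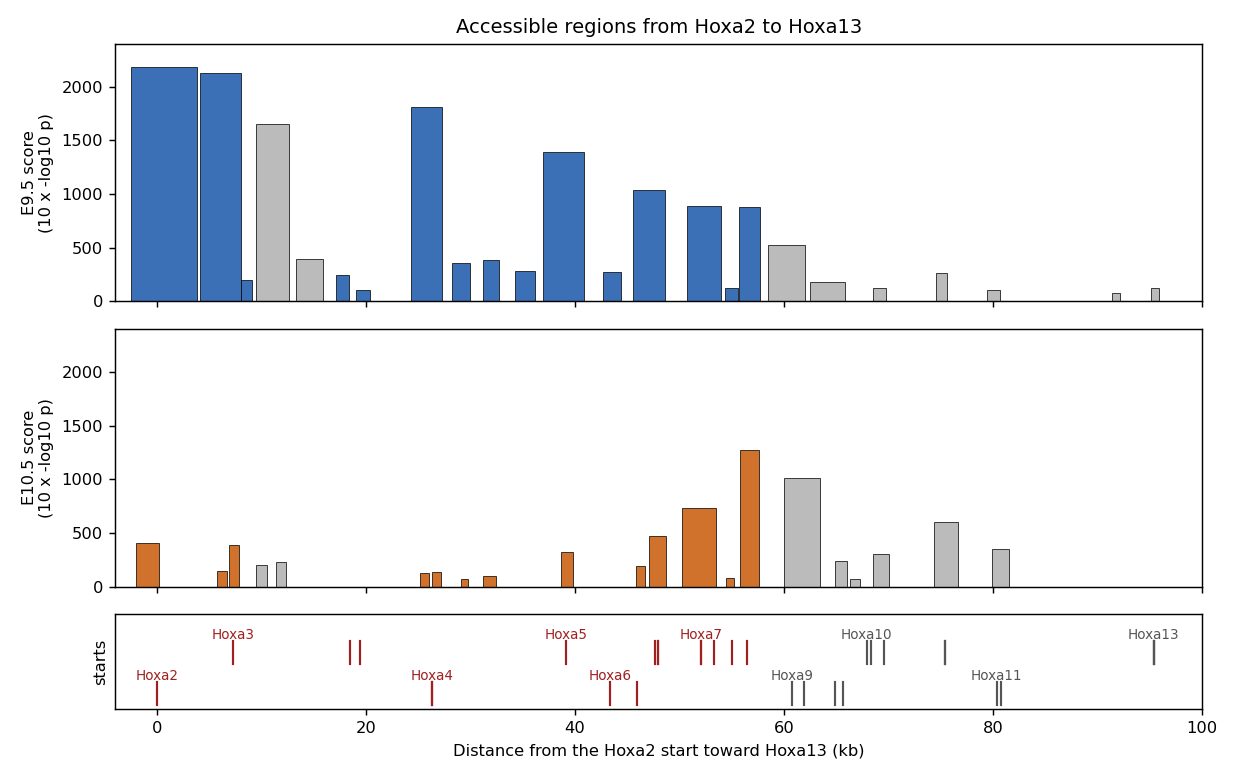
Each bar is 1 accessible region between Hoxa2 and Hoxa13, drawn at its position and width in kb from the Hoxa2 start, with its score (10 times the negative log10 of p) as height; coloured bars are regions of the anterior HoxA genes, grey bars those of other genes, and ticks mark annotated transcription starts (red for the 6 anterior genes). The bars are tallest at the Hoxa2 side at E9.5 (2187.8) and at Hoxa7 at E10.5 (1269.23); heights of the 2 stages are not comparable because depth is unknown.

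Few parts of the genome were covered to a like extent. When the genome was tiled with windows of the same length, 3 of the 26081 windows that held a region had at least its E9.5 cover, and 11 had at least its E10.5 cover. A surplus of E9.5 over E10.5 cover at least as large, 23783 bp, was found in 2 windows. The tiling includes the HoxA cluster itself, and its fixed windows can split a covered stretch. Lower cover at E10.5 was also found over the HoxB, HoxC and HoxD paralogues (below), with 43451 and then 9841 bp covered over HoxB. The longest gap between regions was 3920 bp at E9.5, between Hoxa3 and Hoxa4. At E10.5 it was 12878 bp, at chr6:52127709-52140586 in the same part of the cluster. The stretch also holds 2 regions at each stage whose nearest start is that of 5730596B20Rik, a gene annotated between the Hoxa3 and Hoxa4 coding sequences.

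The number of regions changed little, while their width and rank did. The 15 regions at E9.5 had a median width of 1848 bp (1039 to 6345), and the 13 at E10.5 a median width of 993 bp (730 to 3207). Medians over all regions were 1100 and 1000 bp. Over all regions within 2.5 kb of a start they were 1562 and 1376 bp. Of the anterior HoxA regions, 12 of 15 and 11 of 13 lay that near to a start. Median scores of all 15 and 13 were 389 and, at E10.5, 189, which correspond to the percentiles 60.8 and 40.4. For all regions within 2.5 kb of a start the median percentiles were 77.8 and 77.1, higher at both stages. Summed over the regions of the anterior genes, the width was 37051 bp at the earlier stage and 16955 bp at the later one. Of the 15 regions at E9.5, 3 spanned 2 or more separate E10.5 regions, compared with 1.53% of all E9.5 regions. That background was not matched for width, and these 3 regions, of 2991 to 3876 bp, were among the widest 3.16% of the list.

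Regions were missing at E10.5 and none were added, although the share of E9.5-specific regions was near that of the whole list. At E9.5, 5 of 15 regions (33.3%, 95% interval 15.2 to 58.3) had no E10.5 partner, against 29.9% of all E9.5 regions. Among the 12 regions within 2.5 kb of a member's start, 4 were E9.5-specific, where the background was 13.1%. At E10.5, 0 of 13 regions were stage-specific, which allows a share of up to 23.1% (the share that 3 regions would give), against a background of 35.0%. For the 11 regions near a start, 0 were E10.5-specific and the background was 5.31%, so that this second count lies near its background. These counts depend on the overlap that is asked for. With a reciprocal overlap of 50%, 11 of the 15 E9.5 regions had no partner (background 33.4%), nor did 9 of the 13 E10.5 regions (background 39.3%), because most E10.5 partners were narrow parts of wide E9.5 regions.

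Of the 10 shared E9.5 regions, 8 had a best E10.5 partner of lower rank, where 49.7% of all shared E9.5 regions did. A fall of 25 percentile points or more was seen for 6 of 10, against a background of 9.58%. The median difference, E10.5 minus E9.5, was -27.5 percentile points (-65.2 to 12.8), compared with 0.0874 over all shared regions and -1.47 over the shared regions within 2.5 kb of a start. It was -7.16 with a reciprocal overlap of 50%, which leaves 4 of the 10 pairs. The 2 exceptions both belonged to Hoxa7.

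**Figure D2:**
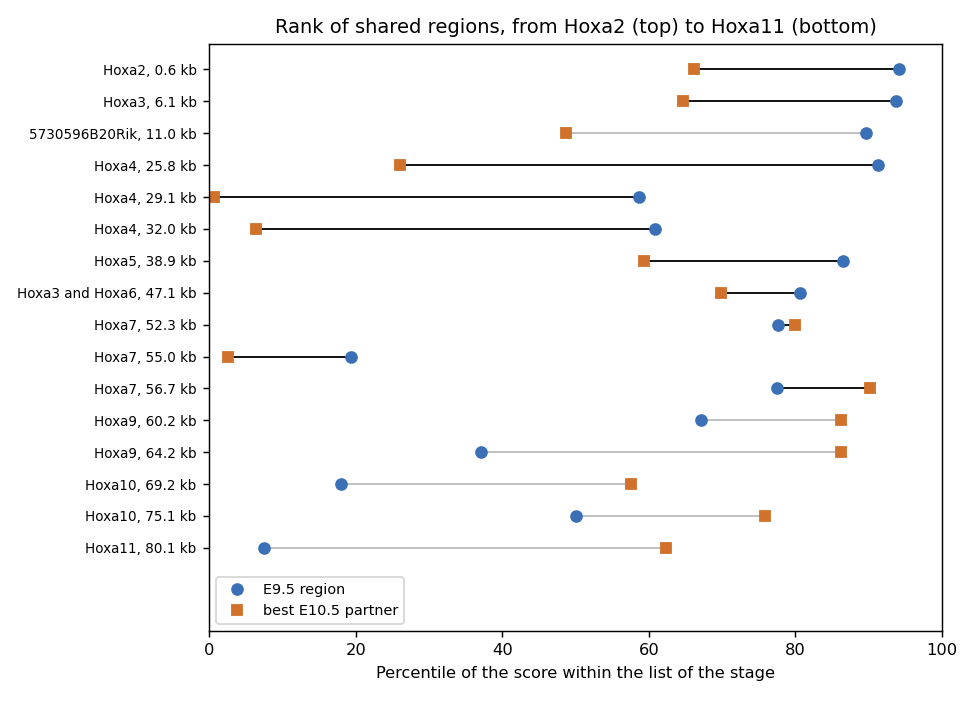
Score percentile of each shared E9.5 region from Hoxa2 on (circle) and of its best-scoring E10.5 partner (square), ordered from the Hoxa2 to the Hoxa11 side, with the distance of the region's centre from the Hoxa2 start in kb; black lines join regions of the anterior genes, grey lines those of other genes. Squares lie to the left of circles from Hoxa2 to Hoxa6 and to the right from Hoxa9 to Hoxa11, with Hoxa7 showing both directions.

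Hoxa2 patterns the hindbrain and the second pharyngeal arch. It had 1 region in each list, over its single annotated start at chr6:52115412. At E9.5 this was chr6:52112859-52119203, which scored 2187.8 (percentile 94.2) and had the highest score of any anterior HoxA region. At 6345 bp it was also the widest, and 71 of the 42613 E9.5 regions (0.167%) were at least as wide, itself included. It covered most of the gene and extended beyond its start toward Hoxa3. At E10.5 the region was chr6:52113415-52115543, 2129 bp wide, with a score of 408.11 (percentile 66.2), so that 33.6% of the E9.5 region was still covered. The PBX-HOX composite motif (TGATTNAT, either strand) had 4 matches in the E9.5 region and 3 in the E10.5 region, more than in any other region of the anterior genes. Over the members, 2 of 15 (E9.5) and 1 of 13 (E10.5) regions held this motif, against 15.9% and 17.3% of all regions, which is no higher.

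Hoxa3, which is required for the thymus, the parathyroid and the third pharyngeal arch, is annotated with 6 starts that lie in 3 places. The start at chr6:52122648 lies at the beginning of the coding sequence. It was inside an E9.5 region of 3876 bp (chr6:52119537-52123412, score 2128.48, percentile 93.8). At E10.5 that region was replaced by a pair of short ones inside it, of 871 bp (score 144.75, percentile 27.9) and, over the start, 993 bp (chr6:52122296-52123288, score 384.1, percentile 64.6). An upstream group of starts at chr6:52163066-52163338 lies between Hoxa6 and Hoxa7, so that Hoxa3 transcripts that begin there run across Hoxa4, Hoxa5 and Hoxa6. The region over these starts is described with Hoxa6.

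The remaining pair of Hoxa3 starts, at chr6:52133854 and chr6:52134873, belonged to regions that were found at E9.5 alone. The region chr6:52134454-52135804 (score 106.82, percentile 10.2) contained the second of them, and chr6:52132538-52133819 (score 243.18, percentile 47.8) ended just short of the first. A further E9.5-specific region, chr6:52123433-52124471 (score 194.09, percentile 39.7), was separated by 20 bp from the large region at the coding start and had its centre in an exon of the noncoding gene Gm15050. With these 3, Hoxa3 held most of the 5 E9.5-specific regions of the anterior genes, all of moderate or low score. The centre of the region over the second start is printed because it is the one among these 3 centres with a HOX core (TAATTA, a palindrome), in capitals. The sequence is chr6:52134980-52135279 of mm9, plus strand, in an intron of the long Hoxa3 transcripts.
Hoxa3 E9.5-specific region: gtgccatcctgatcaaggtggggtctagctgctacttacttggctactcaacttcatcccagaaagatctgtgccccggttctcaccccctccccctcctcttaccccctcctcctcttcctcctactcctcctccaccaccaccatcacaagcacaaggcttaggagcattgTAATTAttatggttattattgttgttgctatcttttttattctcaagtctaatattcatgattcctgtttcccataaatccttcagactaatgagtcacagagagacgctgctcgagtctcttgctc
The HOX core was found in 6 of 15 (E9.5) and 5 of 13 (E10.5) regions of the anterior genes, compared with 23.1% and 27.7% of all regions, which were not matched for width. Per kb of region, the anterior genes had 0.216 (E9.5) and 0.295 (E10.5) matches and all regions 0.220 and 0.312, so the density was no higher.

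Hoxa4, which acts in the neck and the upper thorax, showed the largest fall in rank. Its starts at chr6:52141702 and chr6:52141752 lay in chr6:52139725-52142715 at E9.5, a region of 2991 bp that covered nearly the whole gene and scored 1808.31 (percentile 91.3). At E10.5 this was split into a part inside the gene (846 bp, score 128.35, percentile 21.5) and a part over the starts (chr6:52141689-52142560, 872 bp, score 139.59, percentile 26.1). The difference of -65.2 percentile points was matched or exceeded by 0.187% of all shared E9.5 regions. Both distal regions on the 5′ side of Hoxa4 fell as well. The one centred 2720 bp from the start fell by 58.1 percentile points (score 356.74, then 69.58), and the one 5642 bp from it fell by 54.5 percentile points (score 388.8, then 95.18). At E10.5, the 4 Hoxa4 regions thus scored between 69.58 and 139.59, where the lowest score of that list was 60.44. Only the distal ones, at the percentiles 0.635 and 6.35, were near that lowest score.

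The 200 bases upstream of the main Hoxa4 start (chr6:52141753-52141952, mm9, minus strand, printed in the direction of transcription) are shown because they stayed inside a region at both stages while its rank fell most. Capitals mark 1 match to the MEIS/PKNOX motif (TGACAG), which is present in 12.5% of the 200-base windows upstream of all protein-coding starts.
Hoxa4 upstream: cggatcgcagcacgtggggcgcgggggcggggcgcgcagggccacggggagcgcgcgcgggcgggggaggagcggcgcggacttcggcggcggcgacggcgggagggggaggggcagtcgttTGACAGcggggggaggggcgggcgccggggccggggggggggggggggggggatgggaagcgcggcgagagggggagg
Among the regions of the anterior genes, 7 of 15 (E9.5) and 6 of 13 (E10.5) held TGACAG on either strand, against 60.4% and 55.7% of all regions.

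The distal region nearest to Hoxa4 on its 5′ side, chr6:52143631-52145313 at E9.5 and chr6:52144482-52145211 at E10.5, was the one region of the anterior genes with a match to DR5. This is the direct repeat bound by retinoic acid receptors, and such an element is known near Hoxa4. The match lies at chr6:52144877-52144893 on the minus strand, where it reads aggtgaacttcaggtca, in an intron of the long Hoxa3 transcripts and upstream of Hoxa4. Both E9.5 and E10.5 regions contained it, with the scores 356.74 and 69.58 (percentiles 58.7 and 0.635). Of E9.5 regions within 10% of the same width 2.37% held a DR5 match, and of such E10.5 regions 0.793%.

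DR5 had 2 other matches between Hoxa2 and Hoxa13. One at chr6:52125532-52125548 lay in a region whose nearest start is that of 5730596B20Rik. That region scored 1652.14 at E9.5 (percentile 89.7) and 201.81 at E10.5 (percentile 43.0). The match at chr6:52157404-52157420 lay in no region. The 120 bases around each match that lay in a region are printed from the plus strand of mm9 (chr6:52125481-52125600 and chr6:52144826-52144945), so that the flanks can be compared; capitals mark the match, which is on the minus strand in both.
DR5 between Hoxa3 and Hoxa4: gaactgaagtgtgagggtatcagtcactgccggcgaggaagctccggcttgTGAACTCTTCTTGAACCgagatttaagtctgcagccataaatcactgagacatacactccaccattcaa
DR5 upstream of Hoxa4: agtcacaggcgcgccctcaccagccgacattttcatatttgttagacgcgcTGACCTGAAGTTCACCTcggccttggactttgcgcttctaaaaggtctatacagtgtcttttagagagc
Both printed matches were inside a region of lower rank at E10.5 than at E9.5. A match is a description of the letters and does not show that a receptor binds there. The CTCF core motif had 0 matches in the regions of the anterior genes, while 7.16% of all E9.5 and 6.93% of all E10.5 regions held one.

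Hoxa5 acts in the lung and the skeleton of the neck and thorax. Its start at chr6:52154586 lay in a region of 3900 bp at E9.5 (chr6:52152368-52156267, score 1391.1, percentile 86.5), which 1.07% of all E9.5 regions equalled or exceeded in width. At E10.5 the region was 1114 bp wide (chr6:52154074-52155187, score 321.33, percentile 59.4) and centred within 45 bp of the start. The other Hoxa5 region, chr6:52149702-52151549 (score 278.36, percentile 52.1), lies toward Hoxa4 on the 3′ side of the gene and was E9.5-specific. It was the one E9.5-specific region of the anterior genes more than 2.5 kb from any of their starts.

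Hoxa6 contributes to the pattern of thoracic vertebrae. It was the one member whose main start lost its region. The start of transcript Hoxa6-001, at chr6:52158721, lay in chr6:52158088-52159793 at E9.5 (1706 bp, score 274.6, percentile 51.7) and in no region at E10.5. A start further upstream, at chr6:52161355, lay in a wide region that also contains the upstream Hoxa3 starts (chr6:52160933-52164018, 3086 bp, score 1037.56, percentile 80.6). At E10.5 this region was split, with 850 bp over the Hoxa6 start (score 189.31, percentile 40.4) and 1547 bp over the Hoxa3 starts (chr6:52162530-52164076, score 469.92, percentile 69.8). The better partner, over the Hoxa3 starts, ranked 10.8 percentile points lower, a smaller change than for the other shared regions of Hoxa2 to Hoxa5. This does not describe the Hoxa6 start, where the percentile went from 80.6 to 40.4. That fall was larger than at the starts of Hoxa2 and Hoxa5 and the coding start of Hoxa3, but smaller than at Hoxa4. The 200 bases upstream of Hoxa6-001 (chr6:52158722-52158921, mm9, minus strand, in the direction of transcription) are printed as the sequence of the lost region next to that start.
Hoxa6 upstream: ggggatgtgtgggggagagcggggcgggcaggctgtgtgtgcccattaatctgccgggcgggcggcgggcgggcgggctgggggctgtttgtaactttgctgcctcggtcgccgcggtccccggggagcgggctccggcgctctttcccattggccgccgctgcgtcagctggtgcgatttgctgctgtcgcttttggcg
They hold no match to TGATTNAT, TGACAG or TAATTA.

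Hoxa7, also a gene of the thoracic skeleton, was the member with regions that did not rank lower at E10.5. Its 5 starts lay in 3 regions at both stages. The region over the 3′ starts near the coding sequence kept its rank, with a score of 885.87 at E9.5 (chr6:52166147-52169364, 3218 bp, percentile 77.6) and 734.02 at E10.5 (3207 bp, percentile 80.0). The small region over the start at chr6:52170392 fell from 125.88 (percentile 19.4) to 80.34 (percentile 2.58). The region over the most upstream start, at chr6:52171853, rose in rank by 12.8 points, from 882.67 at E9.5 (1984 bp, percentile 77.5) to 1269.23 at E10.5 (chr6:52171203-52172997, 1795 bp, percentile 90.2). That E10.5 region had the highest score of the anterior genes at that stage, and 90.5% of the E9.5 region was covered by it. The 200 bases upstream of this start (chr6:52171854-52172053, mm9, minus strand, in the direction of transcription) are printed as the sequence beside the start whose region rose in rank.
Hoxa7 upstream: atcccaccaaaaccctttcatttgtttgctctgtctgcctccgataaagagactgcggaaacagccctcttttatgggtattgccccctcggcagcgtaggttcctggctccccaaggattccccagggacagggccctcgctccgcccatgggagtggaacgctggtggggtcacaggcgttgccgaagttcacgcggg
They too hold no match to TGATTNAT, TGACAG or TAATTA.

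All 6 members kept at least 1 region within 2.5 kb of a start at both stages, which was the case for 65.2% (E9.5) and 62.6% (E10.5) of protein-coding gene symbols. Of their 17 starts, 16 lay inside an E9.5 region and 14 inside an E10.5 region (54.0% and 50.2% of all protein-coding starts). The starts that left the regions were those of Hoxa3-002 and Hoxa6-001. What changed over the anterior genes was thus less the presence of a region near each gene than its width and rank.

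Cover was compared along the cluster in segments from one coding start to the next. Between Hoxa2 and Hoxa3, 95.8% of bases were covered at E9.5 but 26.5% at E10.5, the largest ratio (3.61) among the segments from Hoxa2 to Hoxa13. From Hoxa3 to Hoxa4 the shares were 63.9% and 18.1%, from Hoxa4 to Hoxa5 64.0% and 24.4%, and from Hoxa5 to Hoxa6 57.4% and 19.6%. The ratios of these 3 segments lay between 2.62 and 3.54. From Hoxa6 to Hoxa7 the shares were 62.8% and 47.3% (ratio 1.33), and from Hoxa7 to Hoxa9 84.6% and 54.3% (ratio 1.56). The largest step in the ratio between neighbouring segments from Hoxa2 on therefore lay at Hoxa6, inside the anterior part of the cluster. The segment from Hoxa7 to Hoxa9 spans the boundary of that part, so a step at the boundary itself could not be placed. A smaller fall followed at Hoxa9, to a ratio of 0.996 from Hoxa9 to Hoxa10.

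**Figure D3:**
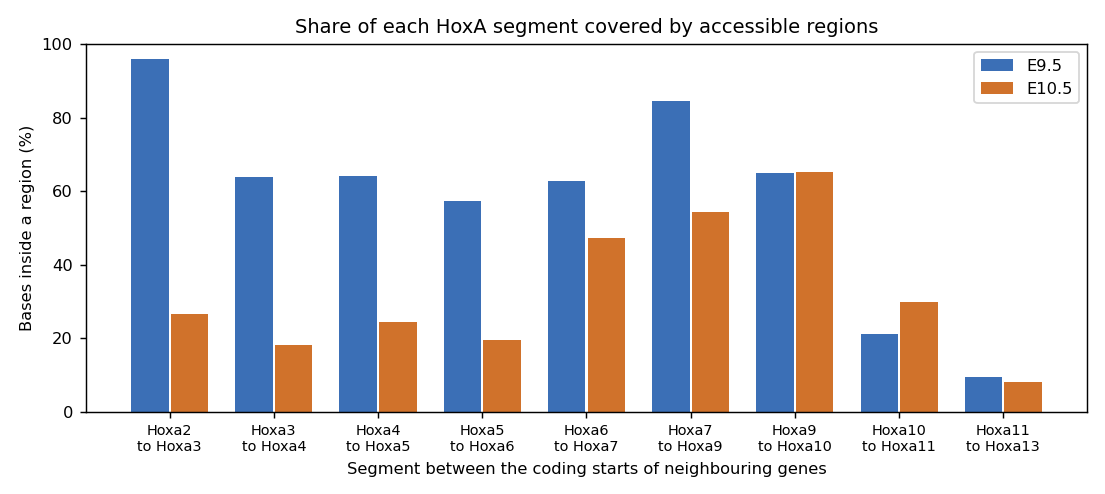
Bars give the percentage of bases inside an accessible region at E9.5 (blue) and E10.5 (orange) for each segment between the coding starts of neighbouring HoxA genes, from Hoxa2 on the left to Hoxa13 on the right. Between Hoxa2 and Hoxa6 the E10.5 bars reach at most 26.5% while the E9.5 bars reach at least 57.4%; from Hoxa9 on, the ratio of E9.5 to E10.5 bars lies between 0.711 and 1.18.

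Shared regions of the posterior HoxA genes moved the other way. All 5 of their shared E9.5 regions had a best partner of higher rank at E10.5, with a median difference of 39.6 points (19.1 to 54.8), and 2 of these 5 shared a partner. The other 2 of 7 posterior regions at E9.5 had no partner (background 29.9%), both at Hoxa13, whose starts lay in a region at E9.5 (score 128.38) and in none at E10.5. Hoxa9 went from 521.26 (percentile 67.1) to 1007.68 (percentile 86.2), and Hoxa11 from 101.63 (percentile 7.44) to 353.52 (percentile 62.3). From the 3′ end of Hoxa9 to Hoxa13, regions covered 31.2% and 28.7% of the bases (ratio 1.09). By best region, the order of the anterior genes at E9.5 followed their order in the cluster, with percentiles of 94.2 for Hoxa2, 93.8 for Hoxa3, 91.3 for Hoxa4, 86.5 for Hoxa5, 80.6 for Hoxa6 and 77.6 for Hoxa7. At E10.5 the order was Hoxa7 (90.2), Hoxa3 and Hoxa6 with a common region (69.8), Hoxa2 (66.2), Hoxa5 (59.4) and Hoxa4 (26.1). With 1 value per stage, neighbours in these orders cannot be separated by a replicate error.

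**Figure D4:**
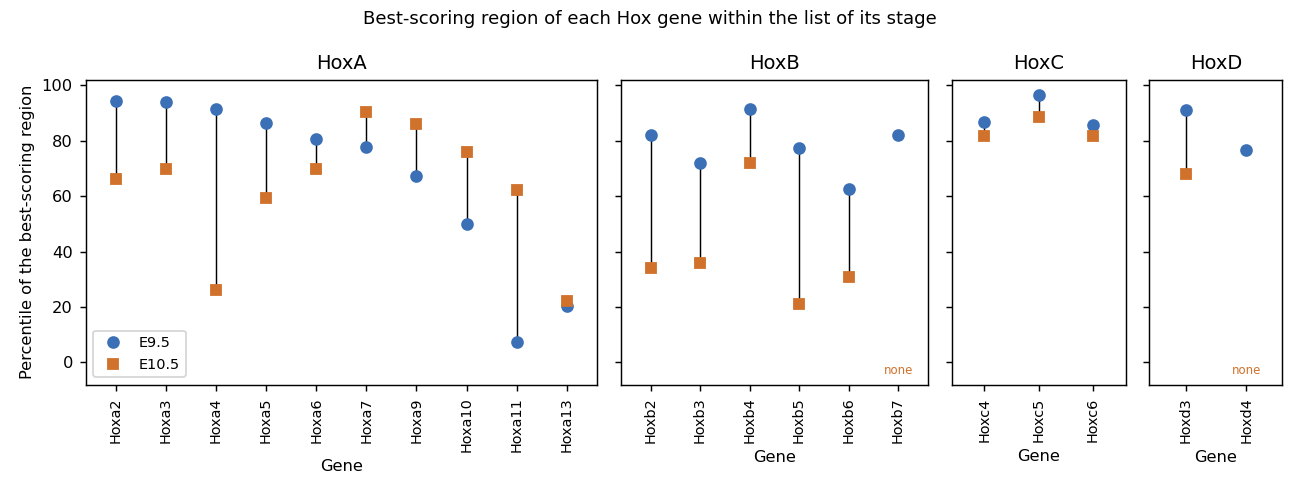
Percentile, within the list of the stage, of the best-scoring region of each HoxA gene from Hoxa2 to Hoxa13 and of the HoxB, HoxC and HoxD paralogues of the anterior HoxA genes; circles are E9.5, squares are E10.5, and "none" marks a gene without a region at E10.5. Circles lie above squares from Hoxa2 to Hoxa6 and for each paralogue with a region at both stages, and below them from Hoxa7 to Hoxa13. For Hoxa13 the symbols stand for different regions, which do not overlap, and the E10.5 one lies more than 2.5 kb from any start.

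The paralogues of the anterior HoxA genes, which share ancestry and much of their function with them, also had lower ranks at E10.5. All 8 shared E9.5 regions of Hoxb2 to Hoxb7 ranked lower (median -36.4), as did all 13 of Hoxc4 to Hoxc6 (median -8.68) and all 5 of Hoxd3 and Hoxd4 (median -19.9). Stage-specific regions at E9.5 numbered 15 of 23 in HoxB, 5 of 18 in HoxC and 7 of 12 in HoxD, where the background was 29.9%, so that HoxC lay near it. None of the 9, 16 and 6 E10.5 regions of these genes was E10.5-specific (background 35.0%). Covered bases fell from 60.8% to 13.8% over the HoxB paralogues (ratio 4.42), from 64.1% to 35.3% over HoxC (ratio 1.82) and from 72.6% to 10.4% over HoxD (ratio 6.99). The anterior HoxA genes, at 2.34, lay between HoxC and HoxB. Hoxb7, the paralogue of Hoxa7, scored up to 1108.12 at E9.5 (percentile 81.9) and had no region at E10.5, whereas the best region of Hoxa7 rose from the percentile 77.6 to 90.2.

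Genes of the HOX cofactors and of known inputs to anterior Hox genes were examined by their best region within 2.5 kb of a start. As background, 65.2% (E9.5) and 62.6% (E10.5) of protein-coding gene symbols had such a region. Counted per region and not per gene, 8294 of 14190 shared E9.5 regions within 2.5 kb of a start ranked lower at E10.5 (median -1.47). All 9 cofactor genes (Meis, Pbx and Pknox families) had such a region at E9.5, and 8 still had one at E10.5. The rank was lower at E10.5 for 7 and higher for 1 of these 8, with a median difference of -5.35 points. Meis3 differed most, with percentiles of 89.4 and 30.5, and Pbx2 had its one region (percentile 74.2) at E9.5 and none at E10.5, whereas Meis1, a marker of the proximal limb, was at 97.4 and 97.0. Among the 13 input genes, 12 had a promoter-side region at E9.5, of which 9 were left at E10.5. Aldh1a2, the enzyme that makes retinoic acid, Cyp26a1, an enzyme that degrades it, and Cdx1, a caudal homeobox factor, had a region within 2.5 kb of a start at E9.5 (percentiles 70.9, 43.4 and 73.3) but not at E10.5, when their remaining regions lay further away. Of the retinoic acid receptor genes, Rara went from the percentile 84.2 to 65.3, while Rarb (95.6 and 96.7) and Rarg (92.9 and 95.1) were slightly higher at E10.5. Cdx4 had no region. For the 9 with a region at both stages, 7 ranked lower and 2 higher at E10.5 (median -8.64).

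Because the E9.5 samples carried trunk, marker genes of the tissues present were examined in the same way. Each list holds few genes, and its counts are to be read beside the same background, in which 8294 of 14190 regions ranked lower. Limb mesenchyme markers had a promoter-side region for 8 of 8 genes at both stages, with 4 higher and 4 lower at E10.5 and a median difference of 2.25 points. Somite and trunk mesoderm markers had one for 7 of 7 at both stages, with percentiles from 35.3 to 84.2 at E9.5 and from 12.1 to 91.6 at E10.5; 4 ranked lower and 3 higher at E10.5 (median -23.2). All 4 neural tube markers that could be matched ranked lower at E10.5 (median -11.9), with percentiles from 69.6 to 96.6 at E9.5 and from 10.7 to 94.9 at E10.5. Markers of intermediate mesoderm and body wall went from 5 genes with such a region to 4, of which 3 ranked lower and 1 higher (median -22.5). For limb ectoderm the count went from 4 of 5 to 3, all lower (median -4.43), for hindlimb from 3 of 3 to 2, with 1 higher and 1 lower (median -9.65), and blood and vessel markers had 2 of 4 at both stages, both lower (median -5.42). The part of the trunk tissues in the changes at the anterior HoxA genes was not tested.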

How the data were processed

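ATAC-seq was carried out by the authors on 2 replicates per stage. According to the study's methods, reads were aligned to mm9 with Bowtie 1.1.0, keeping reads with a single location, and regions were called per replicate with MACS 1.4, its local background model turned off. Both replicates of a stage were then combined with MSPC, using a stringent p of 1e-10 and a weak p of 1e-06. The deposited score is 10 times the negative log10 of the best replicate p-value, so the minimum is about 60. Read totals were not used here.

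Regions were set against the transcription starts of GENCODE vM1 on NCBIM37, the same build as mm9, and every region fitted on its chromosome. Starts of 22380 protein-coding genes (70064 in all) were used. Percentiles are mid-ranks within a list. Motifs were searched on both strands: TGATTNAT, TGACAG and TAATTA, and by consensus DR5 and the CTCF core. The calculations were made in Python 3.11.15 with numpy 2.4.6 and scipy 1.17.1, and the overlap code was tested on simulated data.

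The members and gene lists were chosen with earlier results of these data known. Regions are given with coordinates where they were stage-specific, had the best score of a member or covered its main start; the sequences upstream of Hoxa4, Hoxa6 and Hoxa7 and the regions named beyond this were chosen after their values were seen. Alternatives were a stricter score, the higher-scoring regions, other overlap rules, other starts and other distances.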

Additional observations from a re-analysis of the deposited data

How the results depend on the processing

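The counts, covered shares, medians and stage-specific shares were recomputed under the stricter scores, overlap rules and sets of starts that apply to each; rank medians of genes other than the anterior HoxA genes were not. Of 121 values obtained, 16 moved. Counts and covered shares were called moved when they differed from the main value by more than 1.5 times. Medians and stage-specific shares were called moved when they lay beyond the interval of the main value. Medians and shares within that interval could still differ by more than 1.5 times. A reversal of sign was possible only for the median rank difference, where 0 of 7 alternatives reversed. The other values cannot be negative, so the absence of reversals among them says nothing about their direction. The median score at E9.5 was 636 for scores of at least 120 and for starts of the longest coding transcript, 886 with the higher-scoring 50% and 883 with starts of all gene types, and at E10.5 it was 353 for scores of at least 120 and 439 with the higher-scoring 50%. The median width was 2991 and 1671 bp with the higher-scoring 50%, and the HoxC share at E9.5 was between 44.4% and 50% under both score choices and reciprocal overlap. With the higher-scoring 50% of each list, the anterior HoxA genes had 6 regions at E10.5 and 16.2% of their stretch was covered at that stage, and the stage-specific shares were 92.3% for HoxB at E9.5 and 0 and 75% for the posterior HoxA genes at E9.5 and E10.5. With a reciprocal overlap of 50%, stage-specific regions of the anterior genes numbered 11 at E9.5 and 9 at E10.5, and the shares were 71.4% at both stages for the posterior HoxA genes, 87.0% and 66.7% for HoxB, and at E10.5 37.5% for HoxC and 50% for HoxD. This rule separates a narrow region from a wide one that contains it. Requiring the centre of a region inside the other list gave 8 E9.5-specific regions of the anterior genes, and assigning regions by the start of the longest coding transcript or by starts of all gene types gave 3 in either case, since fewer regions are then assigned to these genes. Counting every region of the Hoxa2 to Hoxa7 interval, an alternative chosen after seeing the data, gave 6 regions specific to E9.5 and 0 specific to E10.5. The median rank difference was negative under the 7 alternatives run for it, which do not include starts of all gene types, from -37.9 with the higher-scoring 50% to -7.16 with a reciprocal overlap of 50%.

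No paired analysis was possible because the lists were already combined over replicates, and leaving out a replicate was not run for the same reason. Depth is unknown, and a region absent from a list is one that did not pass its threshold.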
